A study of Homo sapiens with 12 samples.

Results

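The genes described here encode the subunits of the human proteasome and the proteins that assemble, activate or inhibit it. They were taken as the genes of the deposited log2 table whose symbol starts with PSMA, PSMB, PSMC, PSMD, PSME, PSMF or PSMG followed by a number. This pattern matched 45 of the 9412 genes in that table. Of these, 44 are protein-coding members, and the other is PSMA3-AS1, an antisense RNA, which was kept apart. The members are 7 genes of the 20S alpha ring, 7 of the constitutive 20S beta ring, 2 of the immunoproteasome beta subunits, 6 of the 19S base ATPases, 3 further genes of the 19S base, 8 of the 19S lid, 3 base chaperones, 5 activators or inhibitors and 3 assembly chaperones of the 20S core. Symbols were looked up by role as well, and 4 genes of these families were absent from the table, PSMA8, PSMB9, PSMB11 and PSMG4. Each was below 10 cpm in all 12 libraries.

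RNA was sequenced from WI-38, a line of normal human lung fibroblasts, in 4 conditions with 3 flasks each. TGF-β, the cytokine that drives fibroblasts towards myofibroblasts, was given at 2 ng/mL. D1 and D1+ TGF-β were untreated and treated flasks harvested at day 1 (passages 2 to 3), and D20 and D20+ TGF-β were untreated and treated flasks harvested at day 20 (passages 5 to 6). All groups were the same line, and the study's methods state that the day 20 flasks of each treatment were seeded from 1 flask, so the p-values given here measure the spread between flasks and not between independent cultures. Time in culture and passage differ together and cannot be told apart.

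The proteasome is the large protease that degrades proteins tagged with ubiquitin. Its 20S core is a barrel of outer alpha rings, which gate the entrance, and inner beta rings, which hold the proteolytic sites, and the 19S cap recognises ubiquitin chains, removes them and unfolds the substrate with a ring of ATPases. Interferon-gamma induces replacement beta subunits and the PA28 cap, which give the immunoproteasome that feeds antigen presentation, while the basal subunit genes can be raised together by the transcription factor NFE2L1 when proteasome activity falls.

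Libraries held 8674488 to 18286197 counts. Levels are given in cpm, which are counts divided by TMM-scaled library sizes, and a gene was called in a comparison at an adjusted p under 0.01 in edgeR's quasi-likelihood test over 9490 genes, those that reached 10 cpm in 6 or more of the 12 libraries. All 44 members passed that filter. The fibroblast label was borne out by its markers, with 10 of 10 fibroblast markers and 5 of 5 myofibroblast markers passing the filter, against 2 of 6 epithelial (KRT18 and KRT19), 0 of 4 endothelial and 1 of 5 leukocyte markers (CD68). ACTA2, the smooth muscle actin that marks myofibroblasts, lay at 681 to 837 cpm in D1+ TGF-β and at 280 to 351 cpm in D20+ TGF-β, where it overlapped the 272 to 291 cpm of D20. POSTN, another myofibroblast marker, lay at 2184 to 2776 cpm in D20+ TGF-β and at 231 to 269 cpm in D20. Of the other 3 myofibroblast markers, CNN1 and MYL9 were called as lower in D20+ TGF-β than in D20 (log2 fold change -0.44 and -0.72) and TAGLN was not called (0.06). Flask 2 of D1 and flask 3 of D20+ TGF-β stood apart from their groups. The chi-square per degree of freedom against the other flasks of the group was 33.8 to 36.1 for the first, 19.05 to 26.5 for the second and 1.78 to 12.9 for all other pairs. Flask 2 was the lowest of the D1 flasks in 31 of 44 members, which compares with 38.8% of all genes tested.

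The proteasome genes together took 0.601% ± 0.048 of the counts in D1 (SD, n = 3), 0.610% ± 0.0074 in D1+ TGF-β, 0.440% ± 0.014 in D20 and 0.459% ± 0.029 in D20+ TGF-β. The 3 shares of each day 20 group lay below all 6 shares of day 1, and the treated and untreated flasks overlapped at each day. The lowest share of day 1 was 0.553%, in flask 2 of D1, and the highest share of day 20 was 0.486%, in flask 3 of D20+ TGF-β. These are the flasks with the highest sum of 10 markers of dividing cells in their groups, at 1398 and 589 cpm. The sum of those markers was 1146 cpm ± 236 in D1, 1049 cpm ± 43.6 in D1+ TGF-β, 236 cpm ± 19.01 in D20 and 469 cpm ± 104 in D20+ TGF-β. All 10 dividing cell markers fell between day 1 and day 20 with and without TGF-β, and their part in the change of the proteasome genes was not tested. In bulk RNA, fewer cells of a type and less RNA per cell cannot be told apart.

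**Figure D1:**
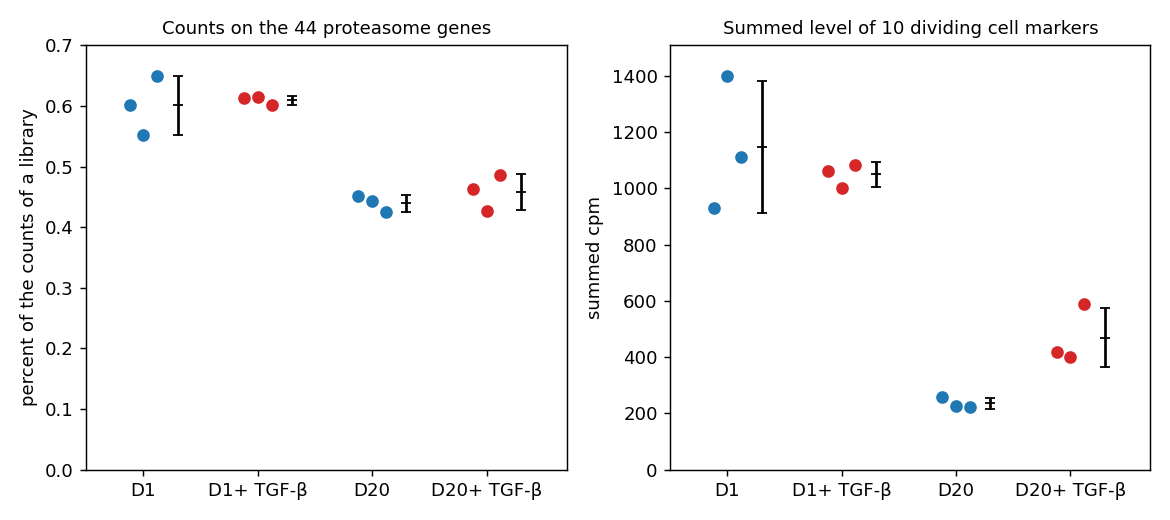
Percent of each library's counts on the 44 proteasome genes (left) and summed cpm of 10 dividing cell markers (right), by condition, with untreated flasks in blue, treated flasks in red and the mean ± SD (n = 3) in black. Both fell from day 1 to day 20, the proteasome share from 0.601% to 0.440% without TGF-β and from 0.610% to 0.459% with it.

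Levels of different genes were compared per length, as cpm per kilobase of transcript (RPKM), with 3 definitions of length because the union of annotated exons is long for some genes. PSMD2, the scaffold of the 19S base that binds ubiquitin shuttles and receptors, had the highest level of all members by each length, with a mean over the 12 libraries of 129.5 RPKM by the exon union and 220.5 RPKM by the longest transcript and by the MANE Select transcript. PSMB5, the chymotrypsin-like subunit of the core, reached 101 RPKM by the exon union and 150.1 RPKM by MANE Select. The lowest level depended on the length. It was that of the assembly chaperone PSMG2 by the exon union (3.38 RPKM) and the longest transcript (7.41 RPKM), and that of PSMG3, another assembly chaperone, by MANE Select (8.21 RPKM). PSMB8, the replacement for PSMB5 in the immunoproteasome, was at 8.24 RPKM by the exon union and at 25.5 RPKM by MANE Select, so that the constitutive subunit exceeded it by each length. PSMA8, a subunit of the testis proteasome, had 0 counts in all 12 libraries. Such a result allows up to 0.346 cpm in the shallowest library.

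The comparison D20 vs D1 addressed what changed with long culture, and the passage that differs with it, without TGF-β. The proteasome genes as a group were lower at day 20. Of the 44 members, 30 fell and 2 rose, while 36.4% of all genes tested were called, 18.9% as higher and 17.6% as lower. The median log2 fold change of the members was -0.37, where that of all genes tested was 0.01. Flasks of the 2 groups did not overlap for 36 of the 44 members, against 55.6% of all genes tested. Without flask 3 of D20 the members called came to 21, and without both libraries that stood apart they came to 38. In these fits 2470 and 4637 of all 9490 genes were called.

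The decline was spread over the core and the cap. All 31 constitutive subunits of the 20S and 19S had a negative log2 fold change, which 48.5% of all genes tested had, and 26 of the 31 were called, all as lower. Their median was -0.43 on the log2 scale, or 0.745-fold. Log2 fold changes ran from -0.44 to -0.25 over the alpha ring, from -0.64 to -0.20 over the constitutive beta ring, from -0.78 to -0.32 over the lid and from -0.69 to -0.14 over the base genes that are not ATPases. By role, the called genes were 6 of 7 in the alpha ring, 5 of 7 in the constitutive beta ring, 6 of 6 base ATPases, 2 of 3 other base genes and 7 of 8 lid genes. The 5 that were not called were PSMA4, PSMB4, PSMB5, PSMD4 and PSMD8.

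**Figure D2:**
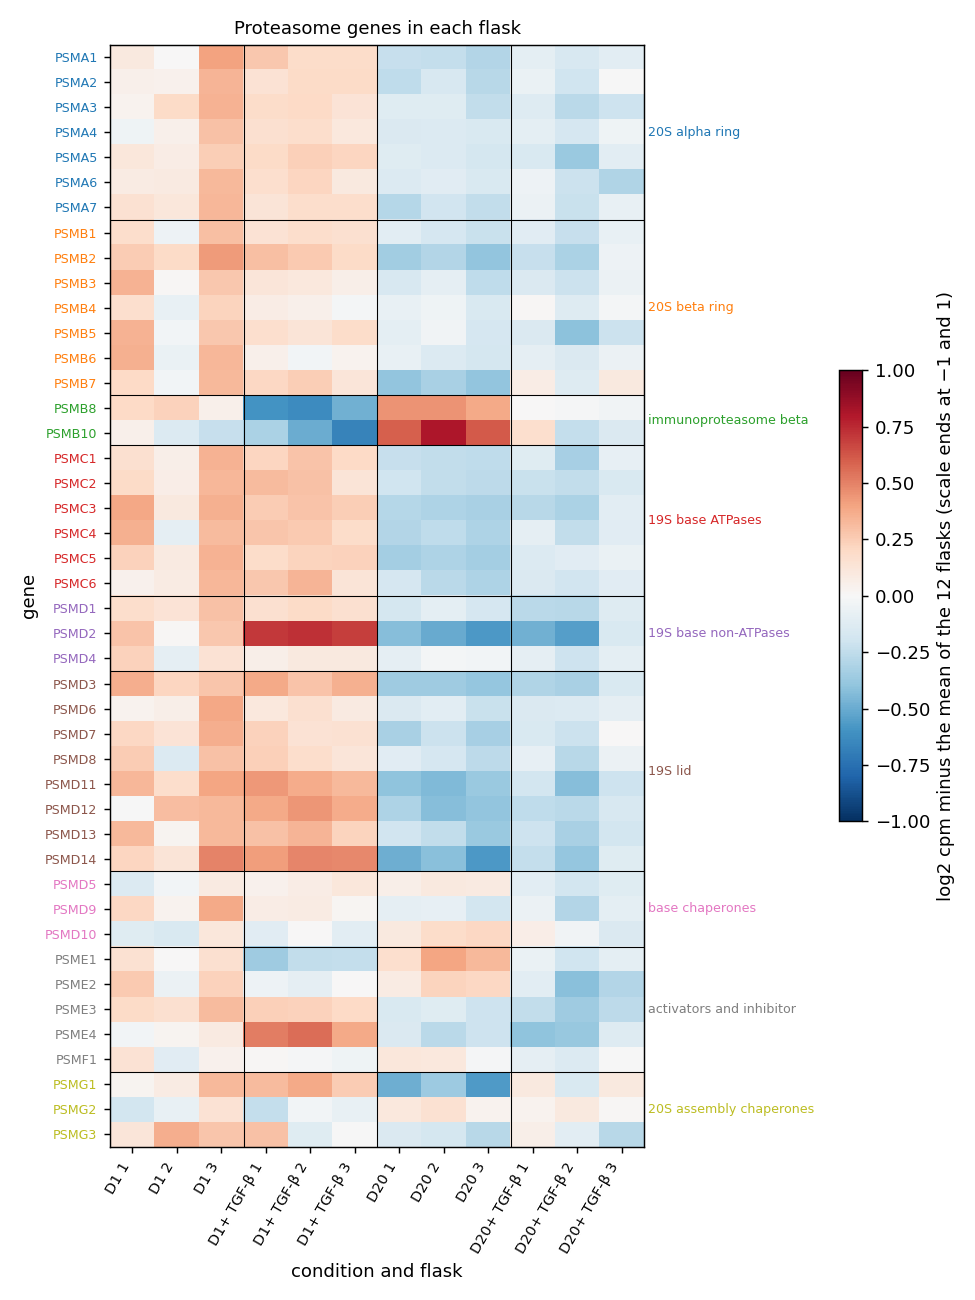
Level of each of the 44 proteasome genes (rows, grouped by role) in each of the 12 flasks (columns), as log2 cpm minus the gene's mean over the flasks, with red above and blue below the mean. The core and 19S genes are mostly red at day 1 and blue at day 20, while PSMB8, PSMB10 and PSME1 are bluest in D1+ TGF-β and reddest in D20.

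The largest fall among the members was that of PSMD14, the deubiquitinase of the lid that cuts ubiquitin chains off substrates. Its levels were 127, 120.1 and 155 cpm in D1 and 78.2, 82.2 and 73.8 cpm in D20. All D20 flasks lay below all D1 flasks, and the log2 fold change was -0.78 ± 0.10 (SE, edgeR adjusted p = 1.93e-05).

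PSMD3 and PSMD11, both structural lid subunits, had the smallest adjusted p-values. PSMD3 was at 165, 149 and 155 cpm in D1 and at 100.1, 100.2 and 98.3 cpm in D20 (log2 fold change -0.65 ± 0.07, edgeR adjusted p = 4.35e-06). PSMD11 went from 110.0, 98.3 and 115 cpm to 66.0, 64.1 and 67.6 cpm (log2 fold change -0.70 ± 0.08, edgeR adjusted p = 8.76e-06). For both genes the D20 flasks differed from each other by less than 4 cpm, and none reached a D1 flask. PSMD12, another structural subunit of the lid, was at 70.4, 87.5 and 88.3 cpm in D1 and at 56.9, 52.7 and 53.8 cpm in D20 (log2 fold change -0.59 ± 0.08, edgeR adjusted p = 6.26e-05).

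The ATPases of the base, which unfold substrates and open the gate of the core, moved within a narrow range, from -0.59 to -0.40 on the log2 scale. PSMC5 was at 138, 125 and 149.8 cpm in D1 and at 93.1, 94.9 and 92.6 cpm in D20 (log2 fold change -0.55 ± 0.07, edgeR adjusted p = 2.17e-05). PSMC3 was at 183, 149.9 and 179.8 cpm in D1 and at 115, 113 and 112 cpm in D20 (log2 fold change -0.59 ± 0.08, edgeR adjusted p = 5.30e-05). In both cases D1 flask 2 was the lowest of its group and still lay above every D20 flask.

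In the core, PSMB2, a structural subunit of the beta ring, was at 103, 98.5 and 116 cpm in D1 and at 67.8, 70.1 and 65.4 cpm in D20 (log2 fold change -0.64 ± 0.08, edgeR adjusted p = 2.42e-05). PSMA1, of the alpha ring, was at 169, 159 and 209 cpm in D1 and at 135, 134 and 129 cpm in D20 (log2 fold change -0.43 ± 0.09, edgeR adjusted p = 0.00128). Neither gene had overlapping groups. PSMB5 was at 198, 152 and 187 cpm in D1 and at 145, 152 and 138 cpm in D20, a log2 fold change of -0.30 ± 0.09 that was not called (edgeR adjusted p = 0.0169), with the lowest D1 flask just above the highest D20 flask.

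The scaffolds of the base went the same way. PSMD1 was at 296, 288 and 320.5 cpm in D1 and at 232, 244 and 233 cpm in D20 (log2 fold change -0.35 ± 0.07, edgeR adjusted p = 0.000742). PSMD2 was at 737, 609 and 729 cpm in D1 and at 449.8, 426 and 405 cpm in D20 (log2 fold change -0.69 ± 0.10, edgeR adjusted p = 0.000104). No D20 flask reached a D1 flask for either scaffold.

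**Figure D3:**
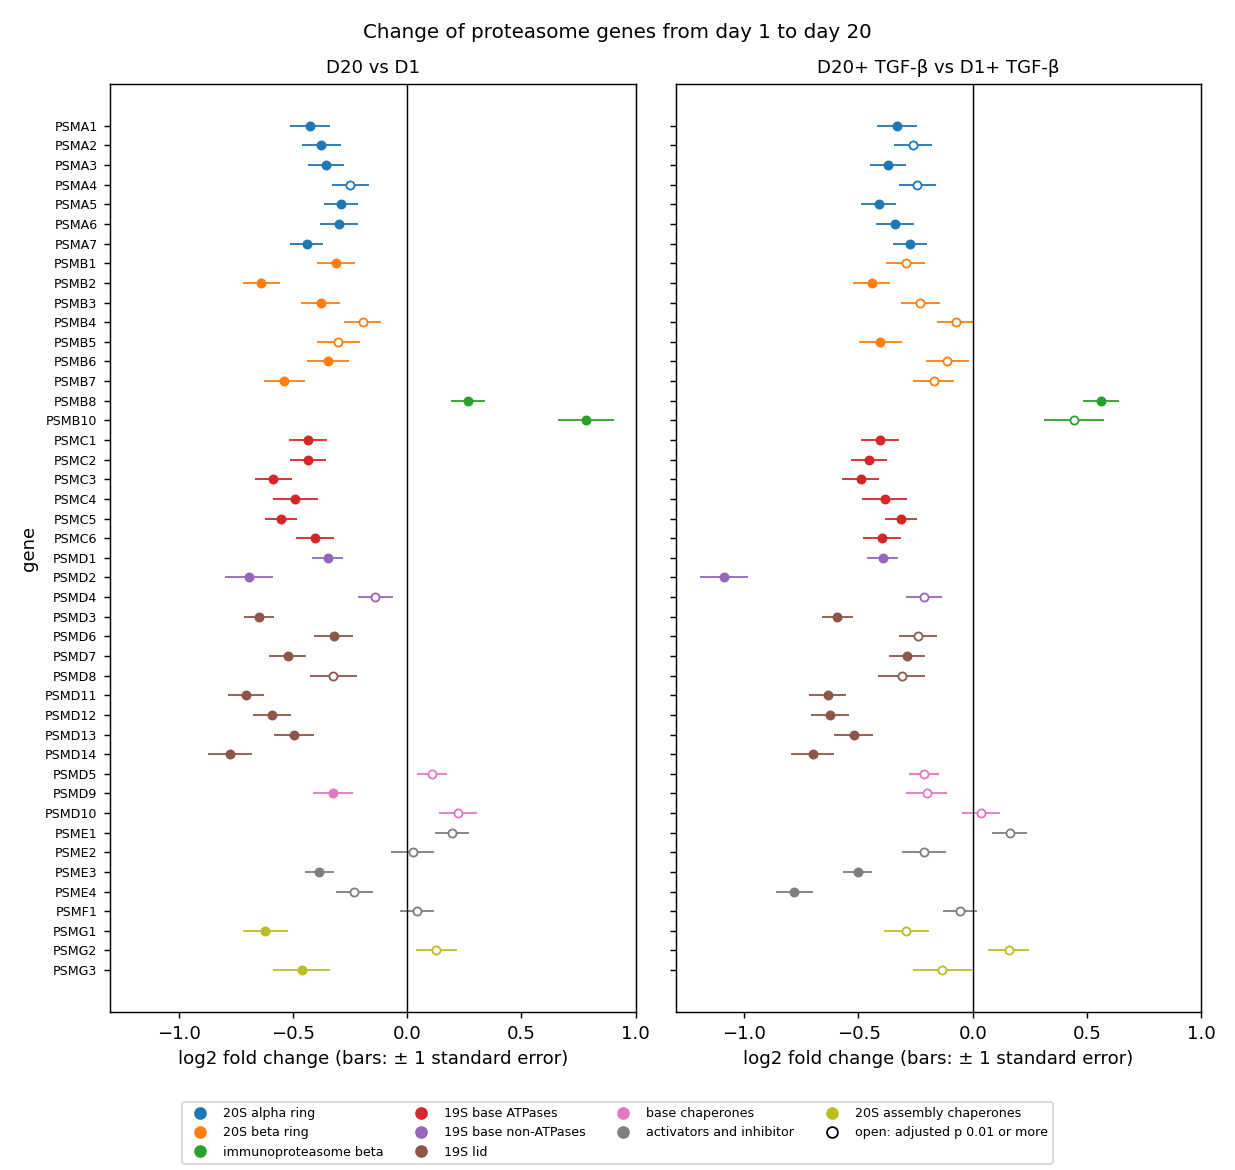
Log2 fold change of each proteasome gene from day 1 to day 20 without TGF-β (left) and with TGF-β (right), coloured by role, with bars of 1 standard error and filled points for genes called at an adjusted p under 0.01. All 31 constitutive subunits lie left of 0 in both panels, and PSMB8 and PSMB10 lie right of 0.

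The comparison D20+ TGF-β vs D1+ TGF-β addressed what long exposure changed beyond short exposure. It shares no library with D20 vs D1, but both were tested in the same fit with a shared estimate of the spread. Passage differs between the days in both. Of the 44 members, 23 fell and 1 rose, with 34.8% of all genes tested called, 17.2% as higher and 17.7% as lower. The median log2 fold change of the members was -0.30, with 0.01 for all genes tested, and flasks did not overlap for 40 of 44 members (63.2% of all genes tested). Of the 31 constitutive subunits, 21 were called, all as lower, and all 31 were negative. Called as lower were 5 of 7 alpha ring genes, 2 of 7 beta ring genes (PSMB2 and PSMB5), 6 of 6 ATPases, 2 of 3 other base genes and 6 of 8 lid genes. Without flask 2 of D1+ TGF-β the members called came to 15, and without both libraries that stood apart to 32. All genes called in these fits came to 2275 and 4486 of 9490.

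PSMD2 showed the largest change. It was at 985, 1002 and 975 cpm in D1+ TGF-β and at 433, 412 and 544 cpm in D20+ TGF-β, and the groups were far apart. The log2 fold change was -1.09 ± 0.10, or 0.470-fold (edgeR adjusted p = 5.33e-06).

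Of the 7 lid genes that fell without TGF-β, 6 also fell with it, and PSMD6 was not called (log2 fold change -0.24 ± 0.09, edgeR adjusted p = 0.0313). PSMD14 was at 146, 154 and 153 cpm in D1+ TGF-β and at 92.8, 84.0 and 101 cpm in D20+ TGF-β (log2 fold change -0.70 ± 0.10, edgeR adjusted p = 6.16e-05). PSMD3 was at 167, 157 and 164 cpm and then at 104, 103 and 115 cpm (log2 fold change -0.59 ± 0.07, edgeR adjusted p = 1.59e-05). For PSMD11 the flasks were at 118, 113 and 109 cpm and then at 76.9, 65.0 and 75.7 cpm (log2 fold change -0.64 ± 0.08, edgeR adjusted p = 3.28e-05). None of these 3 genes had overlapping groups. PSMD12 was at 92.1, 95.8 and 91.5 cpm in D1+ TGF-β and at 59.2, 58.6 and 63.3 cpm in D20+ TGF-β (log2 fold change -0.62 ± 0.08, edgeR adjusted p = 5.68e-05).

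The marker subunits of the particle followed. PSMA1 was at 191, 179 and 179.6 cpm in D1+ TGF-β and at 148, 141 and 147 cpm in D20+ TGF-β (log2 fold change -0.33 ± 0.09, edgeR adjusted p = 0.00706). PSMB5 was at 174, 169 and 176 cpm and then at 140.3, 117 and 133 cpm (log2 fold change -0.40 ± 0.10, edgeR adjusted p = 0.00331). PSMD1 was at 293, 299 and 293 cpm and then at 217, 216 and 239 cpm (log2 fold change -0.39 ± 0.07, edgeR adjusted p = 0.000334). Each of them was lower in all 3 flasks at day 20. The calls of PSMA1 and PSMB5 were lost under 10 and 4 of 20 alternatives, and that of PSMD1 under 0.

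The comparison D1+ TGF-β vs D1 addressed the early response to TGF-β. PSMD2 and PSME4 rose and PSMB8 and PSME1 fell, 4 of 44 members, with 13.4% of all genes tested called, 6.89% as higher and 6.5% as lower. The median log2 fold change of the members was -0.01, and that of all genes tested was -0.02. Of the 31 constitutive subunits only PSMD2 was called. The rise of PSMD2 from 737, 609 and 729 cpm in D1 to 985, 1002 and 975 cpm in D1+ TGF-β was a log2 fold change of 0.51 ± 0.10, or 1.43-fold (edgeR adjusted p = 0.00284), and every treated flask lay above every untreated one. Leaving out flask 1 of D1+ TGF-β left 2 calls, without PSMD2 and PSME1. Leaving out flask 2 left only PSMB8. In these fits 735 and 619 of all 9490 genes were called.

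The comparison D20+ TGF-β vs D20 addressed long exposure apart from culture time. Of the 44 members 6 were called, 2 as higher and 4 as lower, where 27.5% of all genes tested were called, 12.8% as higher and 14.7% as lower. The median log2 fold change of the members was 0.03, with 0.01 for all genes tested. PSMB7 and PSMG1 rose, and PSMB8, PSMB10, PSME1 and PSME2 fell. Without flask 3 of D20 the calls came to 3, with 1799 of all 9490 genes called.

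PSMB7, the trypsin-like subunit of the core, was the only constitutive subunit called at day 20. It was at 81.6, 85.7 and 81.3 cpm in D20 and at 113, 98.0 and 114 cpm in D20+ TGF-β. The flasks did not overlap, and the log2 fold change was 0.39 ± 0.09, or 1.31-fold (edgeR adjusted p = 0.00367). The call of PSMB7 was lost without any 1 of the D20 flasks and without flask 1 or 3 of D20+ TGF-β, with adjusted p up to 0.0185. At day 1 it was at 123, 105 and 134 cpm without TGF-β and at 124, 127 and 116 cpm with it, a log2 fold change of 0.02 ± 0.09 (edgeR adjusted p = 0.889). The difference between these 2 responses, 0.37 ± 0.13, was not called (edgeR adjusted p = 0.0536).

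PSMG1, which forms the chaperone dimer that starts the alpha ring with PSMG2, was at 21.3, 23.2 and 20.2 cpm in D20 and at 32.1, 27.0 and 32.0 cpm in D20+ TGF-β (log2 fold change 0.50 ± 0.10, edgeR adjusted p = 0.00143, and 0.0108 without flask 3 of D20). It was at 30.6, 31.7 and 37.4 cpm in D1, so it also fell in D20 vs D1 (log2 fold change -0.62 ± 0.10, edgeR adjusted p = 0.000182). PSMG2 was called in none of the comparisons, with 35.7 to 46.7 cpm over the 12 flasks. PSMG3 was at 12.6, 15.0 and 14.1 cpm in D1 and at 10.5, 10.3 and 9.55 cpm in D20 (log2 fold change -0.46 ± 0.13, edgeR adjusted p = 0.00744), and that call was lost under 8 of 20 alternatives.

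**Figure D4:**
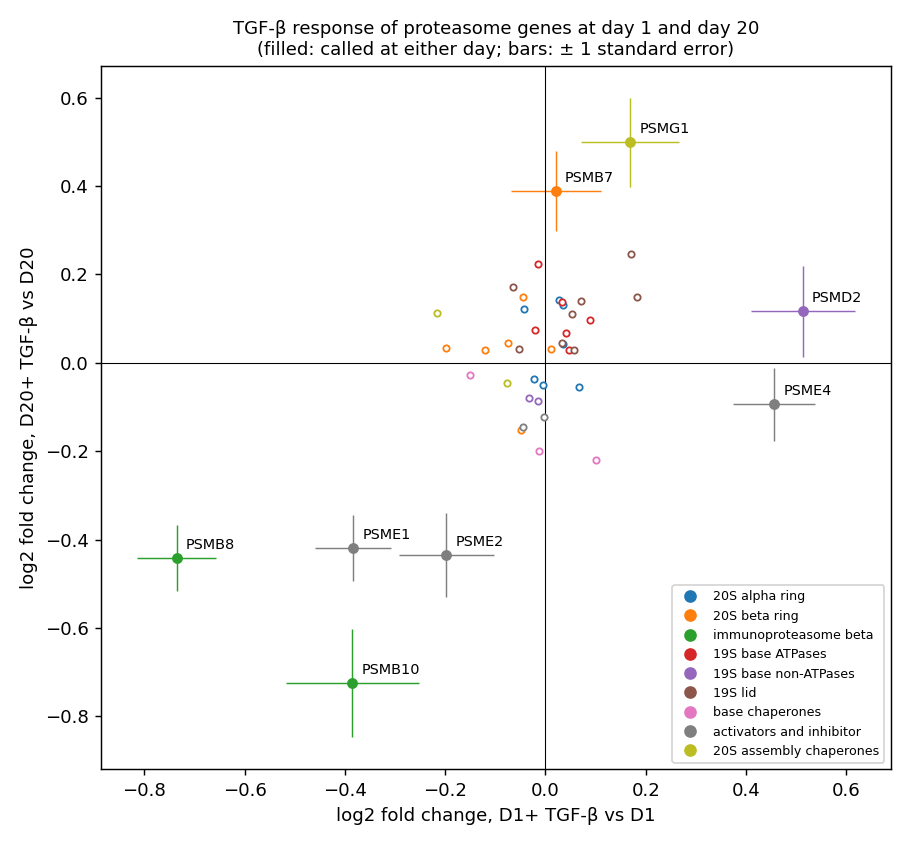
Log2 fold change of each proteasome gene to TGF-β at day 1 (x axis) and at day 20 (y axis), coloured by role, with filled and named points and bars of 1 standard error for the 8 genes called at either day. PSMB8, PSMB10, PSME1 and PSME2 lie lower left, PSMD2 and PSME4 to the right, and PSMB7 and PSMG1 at the top.

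The TGF-β response differed between day 20 and day 1 for 1 of the 44 members, PSME4, with 10.4% of all genes tested called and 5.87% called as lower. PSME4 encodes PA200, a large nuclear activator of the core. It was at 200.4, 208 and 217 cpm in D1, at 292, 300.5 and 266 cpm in D1+ TGF-β, at 185, 169 and 177 cpm in D20 and at 155, 157 and 187 cpm in D20+ TGF-β. At day 1 every treated flask was above every untreated one, while at day 20 the groups overlapped. The response was 0.46 ± 0.08 at day 1 (edgeR adjusted p = 0.00131) and -0.09 ± 0.08 at day 20 (edgeR adjusted p = 0.390), a difference of -0.55 ± 0.12 (edgeR adjusted p = 0.00472, and up to 0.0181 when single flasks were left out). With TGF-β, PSME4 fell over time to 0.582-fold (log2 fold change -0.78 ± 0.08, edgeR adjusted p = 9.59e-06). PSMD2 was also highest in D1+ TGF-β, but the difference of its responses, -0.40 ± 0.15, was not called (edgeR adjusted p = 0.0698).

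The immunoproteasome genes ran against the constitutive ones. PSMB8 and PSMB10 were lower with TGF-β at day 20 and higher in D20 than in D1, whereas all constitutive subunits had negative log2 fold changes with time. PSMB8 was at 31.9, 32.6 and 28.8 cpm in D1, at 18.4, 18.0 and 19.9 cpm in D1+ TGF-β, at 38.0, 38.0 and 36.2 cpm in D20 and at 27.9, 27.5 and 27.1 cpm in D20+ TGF-β. The 4 groups did not overlap, with the lowest flasks in D1+ TGF-β and the highest in D20. The response to TGF-β was -0.74 ± 0.08 at day 1, or 0.601-fold (edgeR adjusted p = 2.30e-05), and -0.44 ± 0.08 at day 20, or 0.737-fold (edgeR adjusted p = 0.000401). With time PSMB8 rose in the presence of TGF-β (log2 fold change 0.56 ± 0.08, edgeR adjusted p = 8.48e-05). Its rise without TGF-β was smaller (log2 fold change 0.27 ± 0.07, edgeR adjusted p = 0.00857), and it was no longer called under 17 of 20 alternative settings.

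PSMB10, the replacement for PSMB7, was at 18.6, 16.4 and 15.3 cpm in D1, at 14.4, 12.8 and 11.3 cpm in D1+ TGF-β, at 27.2, 31.6 and 27.5 cpm in D20 and at 20.2, 15.2 and 16.2 cpm in D20+ TGF-β. D20 was above all other flasks. It was lower with TGF-β at day 20 (log2 fold change -0.72 ± 0.12, edgeR adjusted p = 0.000385), and its log2 fold change at day 1, -0.39 ± 0.13, was not called (edgeR adjusted p = 0.0483). In D20 vs D1 it rose 1.72-fold (log2 fold change 0.78 ± 0.12, edgeR adjusted p = 0.000146), the largest rise among the members. The constitutive PSMB7 fell to 0.689-fold in the same comparison (log2 fold change -0.54 ± 0.09, edgeR adjusted p = 0.000241).

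PSMB9, the replacement for PSMB6, lay under the filter on low counts and was tested in a fit of all 20434 genes with a count. It was at 4.31, 4.90 and 3.85 cpm in D1, at 2.09, 1.17 and 2.45 cpm in D1+ TGF-β, at 8.19, 9.54 and 7.99 cpm in D20 and at 3.64, 2.72 and 1.97 cpm in D20+ TGF-β. The order of the groups was that of PSMB10 except that D20+ TGF-β lay below D1. The response to TGF-β was -1.32 ± 0.25 at day 1 (edgeR adjusted p = 0.000475, with 8.3% of genes called in that fit) and -1.56 ± 0.21 at day 20 (edgeR adjusted p = 2.19e-06, with 17.1% called). D20 was above D1 (log2 fold change 0.89 ± 0.20, edgeR adjusted p = 0.000945, with 22% called). In GRCh37 the annotated span of PSMB9 holds the whole of TAP1 on the opposite strand and overlaps PSMB8 by 544 bases, also on the opposite strand. Whether the counting used strand is not stated, so reads in exons that overlap there cannot be assigned to 1 gene. The values of PSMB9 are uncertain, and so are those of PSMB8 and TAP1 to the extent that their exons overlap it.

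PSME1 and PSME2 encode the alpha and beta subunits of the PA28 cap and lie 4394 bases apart on chromosome 14. PSME1 was at 95.9, 86.2 and 96.0 cpm in D1, at 67.5, 72.6 and 73.0 cpm in D1+ TGF-β, at 96.9, 113 and 108 cpm in D20 and at 82.2, 75.1 and 80.4 cpm in D20+ TGF-β. The treated flasks lay below the untreated ones at both days (log2 fold change -0.38 ± 0.08, edgeR adjusted p = 0.00250 at day 1, and -0.42 ± 0.07, edgeR adjusted p = 0.000579 at day 20). PSME2 was at 84.3, 67.7 and 82.6 cpm in D1, at 67.8, 66.3 and 70.6 cpm in D1+ TGF-β, at 74.5, 81.9 and 81.3 cpm in D20 and at 65.3, 52.6 and 57.4 cpm in D20+ TGF-β. It was lowered at day 20 (log2 fold change -0.44 ± 0.10, edgeR adjusted p = 0.00246, and up to 0.0136 when single flasks were left out). At day 1 its groups overlapped through D1 flask 2 (log2 fold change -0.20 ± 0.10, edgeR adjusted p = 0.150), and its change with time was not called.

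**Figure D5:**
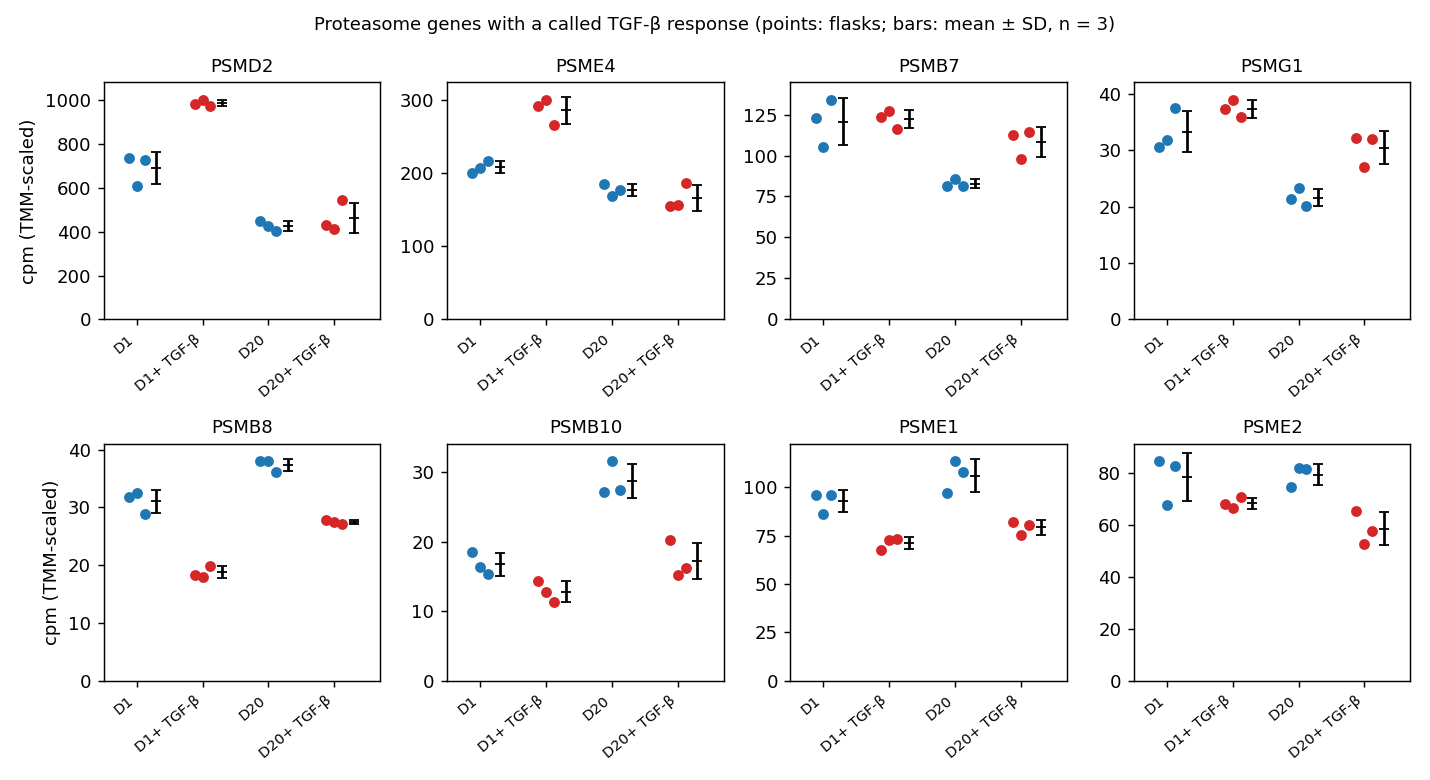
Level in cpm (linear axis from 0) of the 8 proteasome genes with a called TGF-β response, with untreated flasks in blue, treated flasks in red and the mean ± SD (n = 3) in black. PSMD2 and PSME4 stand highest in D1+ TGF-β, PSMG1 and PSMB7 lowest in D20, and PSMB8, PSMB10 and PSME1 highest in D20.

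The promoters of the immunoproteasome and PA28 genes are shown because interferon-gamma acts on such genes through short elements close to the start. RefSeq sequences of GRCh38.p14 were searched on both strands in the 250 bases before each start, for 38 of the 44 members, after the values were known. The capitals mark a match to the interferon-stimulated response element (GAAA, any 2 bases, GAAA) in PSMB10 and PSME2. In PSMB8 they mark a match to the gamma-activated site (TTCNNNGAA). In the constitutive PSMB5 they mark TGANNNNGC, a loose core of the antioxidant response element, which NFE2L1 and NFE2L2 bind. The letters in PSMB5 do not match the fuller form of that element, TGANTCAGC, which was also searched. All 4 stretches are of 60 bases, read 5′ to 3′ on the minus strand, from chr16:67936851-67936910, chr14:24146611-24146670, chr6:32844078-32844137 and chr14:23035292-23035351.
PSMB10: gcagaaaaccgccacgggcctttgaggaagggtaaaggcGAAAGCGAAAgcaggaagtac
PSME2: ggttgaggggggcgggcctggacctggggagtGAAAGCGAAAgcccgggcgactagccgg
PSMB8: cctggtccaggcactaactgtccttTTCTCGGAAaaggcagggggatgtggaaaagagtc
PSMB5: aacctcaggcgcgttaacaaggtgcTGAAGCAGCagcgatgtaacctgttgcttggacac

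PSMB10 and PSME2 held the same 10 letters, GAAAGCGAAA, starting 21 and 28 bases before the start. Of all 35116 promoter windows 28 (0.0797%) held them, and the letters were taken from these matches and not set in advance. PSMG4, an assembly chaperone gene below the filter and not among the members, also held them, at base -33 from its start. In the fit without a gene filter it was not called for TGF-β at day 1 or day 20 (log2 fold change -0.03 and -0.05). Any match to the interferon-stimulated response element was found in 3.02% of all windows and in 4 of the 47 windows of members (8.51%). The others were those of the constitutive PSMA4 and PSMB4. A match to the gamma-activated site was found in 6.57% of all windows and in 6 of the 47 (12.8%), among them another window of PSMB5. Of the 32 windows of constitutive genes 4 held it, and so did 1 of the 6 windows of PSMB8, PSMB9, PSMB10, PSME1 and PSME2. The loose antioxidant response element core was found in 35.2% of all windows and in 26 of the 47 (55.3%). It was in 16 of the 32 windows of constitutive genes and in 5 of the 6 windows of PSMB8, PSMB9, PSMB10, PSME1 and PSME2, among them the PSMB8 and PSME2 windows printed in part here. The fuller form, TGANTCAGC, was in 1.11% of all windows and in 1 of the 47, that of PSMD9. None of the windows of constitutive genes held it. Also searched were the CCAAT box (32.0% of all windows and 17 of the 47) and the ETS core CCGGAAG (8.52% of all windows and 9 of the 47). A match describes letters in the window and not a bound site.

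A list of genes of antigen processing and interferon-gamma signalling was read beside these subunits. At day 20, 6 of the 8 genes tested fell with TGF-β and the others were negative, with 14.7% of all genes tested called as lower. In D20 vs D1 6 of 8 rose, with 18.9% of all genes tested called as higher. At day 1, ERAP1 and IRF1 fell, with 6.5% of all genes tested called as lower, and the other 6 were not called. IRF1, a transcription factor of interferon responses, was at 48.5, 53.0 and 54.1 cpm in D20 and at 24.9, 21.4 and 22.6 cpm in D20+ TGF-β (log2 fold change -1.17 ± 0.14, edgeR adjusted p = 2.23e-05). TAP1, which overlaps PSMB9 and encodes a subunit of the transporter that moves peptides into the endoplasmic reticulum, fell in the same comparison (log2 fold change -0.75 ± 0.12, edgeR adjusted p = 0.000262).

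The other regulators of the core, PSME3 and PSMF1, were not called for TGF-β at either day. PSME3, which forms the nuclear PA28 gamma cap, was at 166, 162 and 181 cpm in D1, at 171, 171 and 167 cpm in D1+ TGF-β, at 131, 133 and 126 cpm in D20 and at 122, 114 and 121 cpm in D20+ TGF-β. It fell with time in both arms, by 0.38 on the log2 scale without TGF-β (SE 0.06, edgeR adjusted p = 0.000236) and by 0.50 with it (SE 0.06, edgeR adjusted p = 3.87e-05). PSMF1, the inhibitor PI31, was at 84.8, 71.0 and 79.1 cpm in D1, at 77.2, 76.0 and 74.3 cpm in D1+ TGF-β, at 83.0, 82.5 and 76.0 cpm in D20 and at 72.0, 69.9 and 76.4 cpm in D20+ TGF-β. Its groups overlapped in every comparison.

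Among all members, 34 of 44 varied over the 4 conditions in a test with 1 mean per condition, where 60.3% of all genes tested did. The 10 that were not called were PSMA4, PSMB4, PSMB6, PSMD4, PSMD8, PSMD5, PSMD10, PSMF1, PSMG2 and PSMG3. The base chaperones PSMD5 and PSMD10, which assist the ATPase ring and leave it before the particle is complete, had log2 fold changes of 0.11 and 0.22 in D20 vs D1, on the other side of 0 from the 6 ATPases. PSMD9, the remaining base chaperone, fell in that comparison (log2 fold change -0.32 ± 0.09), and its call was lost under 10 of 20 alternatives.

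Genes of proteins that work with the proteasome but carry other names were called in both directions in D20 vs D1. Of the 13 such genes, all tested, 4 fell and 2 rose there. Of all genes tested 17.6% were called as lower and 18.9% as higher in that comparison. Between day 1 and day 20 with TGF-β, 6 fell and 0 rose, where 17.7% of all genes tested were called as lower and 17.2% as higher. UCHL5, a deubiquitinase that docks on the 19S cap, was at 23.3, 27.7 and 28.0 cpm in D1 and at 15.5, 15.1 and 12.4 cpm in D20 (log2 fold change -0.88 ± 0.11, edgeR adjusted p = 2.99e-05). POMP, the maturation factor of the core, fell between the TGF-β groups (log2 fold change -0.49 ± 0.09, edgeR adjusted p = 0.000389). ZFAND5, which stimulates the proteasome, went the other way with time, from 338, 653 and 335 cpm in D1 to 766, 803 and 826 cpm in D20 (log2 fold change 0.85 ± 0.21, edgeR adjusted p = 0.00373). D1 flask 2 held the high value, and ZFAND5 fell with TGF-β at day 20 (log2 fold change -1.26 ± 0.21, edgeR adjusted p = 0.000335).

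In the NFE2L1 pathway 11 of 12 listed genes were tested. In D20 vs D1, 5 fell and NFE2L2 alone rose, with 17.6% of all genes tested called as lower and 18.9% as higher. NFE2L1, the factor that raises proteasome genes, was at 308, 260.2 and 244 cpm in D1 and at 299, 312 and 316 cpm in D20 and was not called there (log2 fold change 0.19 ± 0.09, edgeR adjusted p = 0.0892), and it rose between the TGF-β groups (log2 fold change 0.34 ± 0.09, edgeR adjusted p = 0.00690). NFE2L2, its relative and the main factor of the oxidative stress response, was at 121, 142 and 106 cpm in D1 and at 346, 398 and 405 cpm in D20 (log2 fold change 1.64 ± 0.14, or 3.12-fold, edgeR adjusted p = 8.51e-07). With TGF-β at day 20 it was at 203, 215 and 141 cpm, below every D20 flask (log2 fold change -1.04 ± 0.14, edgeR adjusted p = 6.03e-05). It was the only gene of the list called as lower in D20+ TGF-β vs D20, and 3 were called as higher. Of all genes tested 14.7% were called as lower and 12.8% as higher there. Between the TGF-β groups 2 of the listed genes rose and 3 fell, where 17.2% and 17.7% of all genes tested did.

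PSMA3-AS1, the antisense RNA that the symbol pattern also matched, was at 13.9, 19 and 14.0 cpm in D1 and at 22.8, 17.4 and 21.2 cpm in D20, was called in none of the comparisons and overlaps PSMA3 on the opposite strand. In the annotation 16 members have a gene on the opposite strand over part of their length. In addition, 17 members share their name with 44 annotated pseudogenes, 13 of them of PSMC1 and 6 of PSME2, and the counts of those members are uncertain to the extent that reads were split between copies.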

How the data were processed

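The members and the lists were chosen with earlier results of these data known. RNA came from 12 flasks, 3 for each of 4 conditions, and libraries were made with a directional kit. Trimming was done by the authors in Trimmomatic and alignment to hg19 in Rsubread. The authors deposited raw counts per gene and lane, without normalization, and log2 cpm from voom, which was used here only to choose the members. The annotation and use of strand in counting are not given in the sources used here.

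The 4 lanes of a library were summed. Counts of 9490 genes were tested in R 4.3.3 with edgeR 4.0.16 (TMM factors, quasi-likelihood F-test, 1 mean per condition over 12 libraries, Benjamini-Hochberg adjustment), and the script was tested on simulated data. Errors are SDs between flasks or standard errors of log2 fold changes. All members could be named, and per-flask values were given for up to 8 called members of smallest adjusted p in each comparison, the immunoproteasome and activator genes, PSMA1, PSMB5 and PSMD1, those called in the difference of responses, and both ends of the order by length-scaled level. Gene positions and lengths are from GENCODE (GRCh37). Promoters are RefSeq (GRCh38.p14). Alternatives used DESeq2 1.42.0 and limma 3.58.1, other scalings, no gene filter, only 6 libraries, a replicate block and each flask left out. One list fixed for the pathway, of ubiquitin genes and shuttles, is not reported here.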

Additional observations from a re-analysis of the deposited data

Results flagged for a closer look

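The response of PSME4 to TGF-β differed between day 20 and day 1. The log2 difference was -0.55, tested as an interaction in edgeR (adjusted p = 0.00472), with a rise in 3 of 3 treated flasks at day 1 and overlapping flasks at day 20. The call was kept under 12 of 19 alternative settings, and its adjusted p was up to 0.0181 over them. The settings that kept it include the limma-voom fit with lanes as samples. That fit counts lanes of the same library as replicates, so it does not measure the spread between flasks.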

How the results depend on the processing

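Of the 67 calls of single members over the 5 comparisons, 40 were kept under all alternatives, 27 were lost under at least 1 and 0 changed direction. With the 48 lanes taken as samples in limma-voom, which counts lanes of 1 library as replicates, the calls were 10 in D1+ TGF-β vs D1, 18 in D20+ TGF-β vs D20 (12 higher, 6 lower), 38 over time with TGF-β and 11 for the difference of responses. In that fit 3895, 5154, 5724 and 3703 of all 9412 genes were called in these comparisons, in the same order. Without a composition factor no member was called for the difference (0, as against 1), and the median of the difference was 0.13 for the members and 0.125 for all genes, so that the shift was common to both. Of all 9490 genes 1146 were then called for the difference, as against 985. Without both libraries that stand apart, an alternative chosen after seeing the data, 4 members were called for the difference. Of all 9490 genes 2264 were called for it in that fit. Leaving out each flask in turn gave 1 to 5 calls in D1+ TGF-β vs D1, 3 to 8 in D20+ TGF-β vs D20, 15 to 29 over time with TGF-β, 21 to 36 over time without it, 0 to 4 for the difference and 31 to 39 over the 4 conditions. The difference had 0 calls without flask 1 or 2 of D1+ TGF-β, flask 1 or 3 of D20, or flask 1 or 2 of D20+ TGF-β, 2 without flask 3 of D1 or of D20+ TGF-β, and 4 without flask 2 of D1. The medians ranged from -0.06 to 0.06, 0.0066 to 0.0726, -0.33 to -0.25, -0.44 to -0.29 and -0.0621 to 0.1022 in the same order of comparisons. With each flask left out, 619 to 1875 of all 9490 genes were called in D1+ TGF-β vs D1. In D20+ TGF-β vs D20 the calls over all genes were 1795 to 3288. Over time they were 2275 to 4018 with TGF-β and 2470 to 4003 without it. For the difference they were 549 to 1731, and over the 4 conditions 4861 to 6659. The share of D1+ TGF-β was 0.619% of the filtered counts. The median level per length was 20.1 RPKM by the exon union, 32.8 by the longest transcript and 63.0 by MANE Select, which was added after seeing the data.

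Flasks share only a number across conditions. Deviations of same-numbered flasks correlated at -0.034 on average (-0.22 to 0.32), and 5 of 12 libraries were closest to their own number. With the replicate block the counts of calls were 4, 6, 22, 27 and 1, against 4, 6, 24, 32 and 1 without it. Of all 9490 genes 1072, 2379, 3086, 3229 and 831 were called with the block, against 1271, 2609, 3307, 3457 and 985 without it.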
